A study of Rattus norvegicus with 100 samples.

Results

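Primary hepatocytes of rats were exposed to 0.1 µM GW7647 for 2 h and compared with cultures of the same time point at 0 µM. The comparison takes 7 of the 100 arrays of the series, 4 at 0.1 µM (rats Rs627, Rs628, Rs631 and Rs632) and 3 at 0 µM (Rs627, Rs631 and Rs632), chosen by the time and concentration in their titles. GW7647 is a synthetic agonist of the nuclear receptor PPARα, bought from Tocris. In the whole series, cells of 4 rats were left at 0 µM or given 0.001, 0.01, 0.1, 1 or 10 µM, and RNA was taken after 2, 6, 12, 24 and 72 h. Cells of all groups grew on collagen IV under Geltrex in William E medium. Strain, sex and age of the rats are not in the labels, nor is any solvent given to the 0 µM cultures. Rs628 has an array at 0.1 µM but none at 0 µM, so 3 rats have both. Each array measured 1 culture, so the spread between arrays of a group is that between rats. The 4 rats, rather than the number of arrays, limit the precision.

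PPARα is a transcription factor activated by fatty acids and by fibrate-like drugs. It binds DNA as a pair with the retinoid X receptor, and in the liver it is known for raising genes of fatty acid oxidation, of peroxisomes, of lipid droplets and of the switch from glucose to fat as fuel during fasting. The recognition element of that pair is a direct repeat of a hexamer with a single base between the copies.

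Of 8843 genes tested, 17 differed between 0.1 and 0 µM at 2 h with limma (adjusted p below 0.05; 0.192% of the genes tested). Higher at 0.1 µM were 13 (0.147%), namely Pdk4, Txnip, Angptl4, Cyp4a1, Ehhadh, Ppcs, Apol9a, Rab30, Ets2, Whamm, Mlycd, Cebpb and Plin2. Lower were 4 (0.0452%), namely Znf750, Kcnk5, Efna1 and Bbc3. Without adjustment, 363 genes had p below 0.05, a share of the 8843 that is itself below 0.05. It is therefore no count of further changed genes, and neither are the unadjusted counts given below. For each of the 17 genes the 4 treated arrays did not overlap the 3 arrays at 0 µM. The same sign of the difference in 3 of 3 rats follows from that and adds nothing to it. Over all genes tested, 416 did not overlap (4.7%), of which 53 were higher and 363 lower at 0.1 µM.

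The promoters of genes past the threshold are shown to set their sequence beside the response, and 13 of the 17 genes matched the RefSeq promoter table of the build GRCr8. Txnip, Cyp4a1, Znf750 and Bbc3 had no entry. Each window runs from 250 bases before to 50 bases after the start of the gene and is written 5′ to 3′ on the strand of the gene. Both strands were searched for the direct repeat AGGTCANAGGTCA, a looser form AGGNCANAGGNCA, the single hexamer AGGTCA, the carbohydrate response element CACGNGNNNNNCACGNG and the TATA element TATAAA. Among all 27457 promoters the shares with a match were 0.0583%, 0.412%, 15.7%, 0.0401% and 14.3%. Among the 13 promoters here, 0, 0, 1, 0 and 2 held one. The 3 promoters with a match are printed with the match in capitals, and that of Pdk4, the gene with the largest rise, is printed without one. They lie at chr7:15258632-15258931 (minus strand, Angptl4), chr5:138311764-138312063 (minus strand, Ppcs), chr3:176816755-176817054 (plus strand, Cebpb) and chr4:34568280-34568579 (minus strand, Pdk4).
Angptl4: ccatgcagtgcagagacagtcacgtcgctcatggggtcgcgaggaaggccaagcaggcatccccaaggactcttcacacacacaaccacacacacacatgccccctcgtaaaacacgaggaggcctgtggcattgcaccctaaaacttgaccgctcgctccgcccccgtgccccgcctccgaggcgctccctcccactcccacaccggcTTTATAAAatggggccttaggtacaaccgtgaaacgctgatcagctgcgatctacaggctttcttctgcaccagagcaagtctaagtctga
Ppcs: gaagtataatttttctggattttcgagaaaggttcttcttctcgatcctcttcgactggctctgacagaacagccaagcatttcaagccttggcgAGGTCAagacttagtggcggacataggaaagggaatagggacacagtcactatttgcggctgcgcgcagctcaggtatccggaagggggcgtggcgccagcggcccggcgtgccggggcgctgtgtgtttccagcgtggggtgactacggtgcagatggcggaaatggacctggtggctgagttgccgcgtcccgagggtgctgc
Cebpb: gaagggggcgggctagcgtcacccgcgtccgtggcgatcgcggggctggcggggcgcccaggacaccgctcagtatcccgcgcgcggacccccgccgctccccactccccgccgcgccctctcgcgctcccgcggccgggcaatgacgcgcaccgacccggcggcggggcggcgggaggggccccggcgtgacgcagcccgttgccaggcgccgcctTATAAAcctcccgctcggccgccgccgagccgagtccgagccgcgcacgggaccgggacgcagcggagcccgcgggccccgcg
Pdk4: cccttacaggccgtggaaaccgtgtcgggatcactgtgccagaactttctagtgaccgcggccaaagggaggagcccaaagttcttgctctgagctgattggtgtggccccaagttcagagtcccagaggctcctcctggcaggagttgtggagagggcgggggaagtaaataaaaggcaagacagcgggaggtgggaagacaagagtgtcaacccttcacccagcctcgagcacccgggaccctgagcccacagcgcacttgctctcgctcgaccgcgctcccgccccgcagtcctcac
In Angptl4 the capitals are TATAAA at -39 to -34, counted from the start of the gene, and its overlapping match on the other strand at -41 to -36. In Cebpb they are TATAAA at -33 to -28, and in Ppcs AGGTCA at -155 to -150. A match is a stretch of letters, and the absence of one says only that these letters are not in this window.

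The values are log2 intensities, and the arrays were checked before the genes were read. The 75th percentile of the treated Rs631 array was 6.55 and only 4 of the 100 arrays lay lower, while the other treated arrays ranged from 7.03 to 7.17 and the 0 µM arrays from 7.12 to 7.19. The group means were 6.97 ± 0.28 (SD, n = 4) and 7.15 ± 0.04 (n = 3), with p = 0.229 in an exact two-sided permutation test, whose smallest possible value here is 0.0571. Its median of 4.46 was the highest of the 100. In Rs631, 85.4% of genes were lower in the treated array (median difference -0.405), against 61.3% in Rs627 (-0.039) and 48.7% in Rs632 (0.005). The median log2 change of all genes was -0.121, and -0.035 without that array. Its part in the results was not tested beyond the values given without it. Deviations of same-rat arrays correlated, and the 0 µM arrays of 12 h labelled Rs627 and Rs628 correlated with the other of these rats (median 0.773 with Rs628 and 0.514 with Rs627) rather than with their own (-0.017 and -0.218). These 2 arrays enter fits with the rat as a block, which are given below also without them.

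The 3′ minus 5′ log2 value, a sign of RNA quality, was 1.75 ± 0.25 and 1.70 ± 0.09 for β-actin at 0.1 and 0 µM (exact permutation p = 0.8) and 0.274 ± 0.061 and 0.327 ± 0.05 for GAPDH (p = 0.286), each SD with n = 4 and 3. Hepatocyte markers were high (Alb, albumin, at a mean log2 intensity of 13.74), except Cyp2e1 at 4.91. Their summed intensity on the linear scale overlapped, with 75960 to 81320 in treated and 75770 to 82230 in 0 µM arrays. Of 13 macrophage markers 10 were at or under a log2 value of 5, taken as the floor, in all 7 arrays, among them Cd163, Csf1r, Clec4f and Adgre1. The summed macrophage markers, carried by Lyz2 and Cd14, were 1001 to 1284 in treated and 1306 to 1539 in 0 µM arrays, without overlap, and their part in the results was not tested. Of the other lists, 5 of 12 stellate, 8 of 8 endothelial, 4 of 8 bile duct and 3 of 5 neutrophil and red cell markers were at or under the floor in all 7 arrays. Vim of the stellate list and Epcam of the bile duct list were high, at means of 11.2 and 10.44. The sums overlapped for stellate (2009 to 3732 against 2122 to 3832) and bile duct markers (1115 to 2300 against 1145 to 1946), and no marker passed the test. All 5 tested bile duct markers were higher at 0.1 µM (median 0.383) and all 3 tested macrophage markers lower (median -0.3). The median of all genes was -0.121. In such bulk samples, fewer cells of a type and less RNA per cell cannot be told apart.

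Pdk4, a kinase that switches off pyruvate dehydrogenase and so spares glucose carbon, had the largest log2 change of the 17 genes. Its log2 intensity (probe set 1378074_PM_at) was 12.03, 11.98, 11.88 and 11.92 at 0.1 µM in Rs627, Rs628, Rs631 and Rs632, and 9.78, 7.43 and 7.84 at 0 µM in Rs627, Rs631 and Rs632. The 4 treated arrays lay within a narrow band, while at 0 µM Rs627 stood well above the other rats. It rose 12.1-fold (log2 change 3.60 ± 0.46 SE, adjusted p = 1.03e-07), with 2.25 in Rs627, 4.45 in Rs631 and 4.08 in Rs632. A second probe set rose as well (2.98 ± 0.43, adjusted p = 7.26e-06 with every probe set tested on its own).

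Of the 7 tested kinases and phosphatases of pyruvate dehydrogenase 1 passed, Pdk4. Pdk1 and Pdk2, further kinases of the enzyme, had log2 changes of -0.23 ± 0.20 and -0.08 ± 0.15. Pdp2, a phosphatase that reactivates it, had 0.60 ± 0.17 (adjusted p = 0.203; 0.00311 to 0.903 over the 18 alternatives, past the threshold with quantile normalization and 75th-percentile centring), with treated arrays at 7.01 to 7.38 and 0 µM arrays at 6.43 to 6.89. The median of the list was -0.084 beside -0.121 for all genes.

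Angptl4, a secreted inhibitor of lipoprotein lipase, had the smallest adjusted p of all genes. Its log2 intensity (1388924_PM_at) was 11.49, 11.82, 11.73 and 11.81 at 0.1 µM in Rs627, Rs628, Rs631 and Rs632, and 10.55, 9.61 and 10.16 at 0 µM in Rs627, Rs631 and Rs632. Rs627 was the highest at 0 µM and the lowest at 0.1 µM, so its difference was the smallest of the rats (0.95, against 2.12 and 1.65). Angptl4 rose 3.05-fold (1.61 ± 0.16, adjusted p = 3.19e-11).

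Txnip, a thioredoxin-binding protein that limits glucose uptake, had log2 intensities (1371131_PM_a_at) of 11.07, 11.29, 10.52 and 11.26 at 0.1 µM and 9.95, 8.45 and 9.29 at 0 µM, in the same order of rats. Rs631 was the lowest in both groups. Txnip rose 3.49-fold (1.80 ± 0.29, adjusted p = 4.98e-05), a call lost with the 2 h arrays alone. Txnip is also known as a gene that follows glucose through ChREBP, and of 11 tested members of the list of glucose-responsive arrestins and ChREBP targets it alone passed. The median of that list was -0.264. Arrdc4, the arrestin closest to Txnip in its regulation, had -0.72 ± 0.23, and Pklr, liver pyruvate kinase, -0.59 ± 0.47.

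Among enzymes of fatty acid breakdown outside the mitochondrion, Ehhadh and Cyp4a1 rose. Ehhadh, a peroxisomal enzyme that carries out consecutive steps of β-oxidation (1368283_PM_at), was at log2 intensities of 10.07, 9.73, 9.26 and 9.61 at 0.1 µM and 8.63, 8.13 and 8.21 at 0 µM. In each group Rs627 was the highest and Rs631 the lowest. It rose 2.54-fold (1.34 ± 0.26, adjusted p = 0.00356), and it missed the threshold when Rs627 or Rs631 was left out (log2 change 1.36 and 1.38). Cyp4a1, a microsomal ω-hydroxylase of fatty acids (1368934_PM_at), was at 11.81, 11.72, 11.12 and 11.73 at 0.1 µM and 10.77, 9.55 and 10.32 at 0 µM. The treated Rs631 array stood below the other treated arrays, as Rs631 did at 0 µM. It rose 2.60-fold (1.38 ± 0.29, adjusted p = 0.0073), a call lost without Rs631 or Rs632 (1.21 and 1.39).

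Of the 21 tested genes of peroxisomal oxidation and biogenesis, Ehhadh was the only one to pass. Higher were 12 of the 21 (median 0.085, beside -0.121 for all genes). Pex11a, a factor of peroxisome division, had 0.85 ± 0.33 and passed once the rat was a block (adjusted p = 0.0312; 0.0242 to 1 over the 18 alternatives). Hacl1, of peroxisomal α-oxidation, had 0.45 ± 0.26, and Cat, catalase, -0.07 ± 0.10. Of 6 tested genes of ω-oxidation 1 passed, Cyp4a1, and Cyp4a3, a second ω-hydroxylase, passed with the block (0.68, adjusted p = 0.0148; 0.59 ± 0.21 without it).

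None of the 24 tested genes of mitochondrial fatty acid oxidation and the carnitine shuttle passed, beside 0.192% of all genes. Higher were 20 of them (median 0.15, beside -0.121 for all genes). Crat, which moves acetyl groups onto carnitine, was nearest with 0.82 ± 0.21 (adjusted p = 0.0733), and in the blocked fit it passed (0.79, adjusted p = 0.00577). Its treated arrays were at 8.20, 8.10, 7.21 and 7.92, and the 0 µM arrays at 7.37, 6.77 and 6.97. The treated Rs631 array lay between the 0 µM arrays, and without it the log2 change was 1.04 and passed (adjusted p = 0.00431; 0.000346 to 0.903 over the 18 alternatives). Slc22a5, the carnitine importer, had 0.56 ± 0.21 and likewise passed without that array (0.91, adjusted p = 0.00738).

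Cpt1a, the entry step of fatty acids into the mitochondrion, had 0.58 ± 0.26 (95% interval 0.06 to 1.09, adjusted p = 0.877). Its treated arrays were at 9.41, 9.53, 8.45 and 9.20, and the 0 µM arrays at 9.02, 8.18 and 8.51, so that the groups overlapped. Within each rat that has both arrays the treated one was higher. It passed under none of the 18 alternatives (adjusted p 0.0622 to 1).

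Ppcs and Mlycd rose. Ppcs, a step of coenzyme A synthesis (1388756_PM_at), was at 11.34, 11.13, 10.56 and 10.84 at 0.1 µM and at 10.26, 8.99 and 9.70 at 0 µM. The highest 0 µM array, Rs627, lay below the lowest treated one, Rs631. It rose 2.49-fold (1.32 ± 0.24, adjusted p = 0.000709), a call lost without Rs632 (1.39). Mlycd, malonyl-CoA decarboxylase, removes the inhibitor of Cpt1a. It was at 9.76, 9.39, 9.0 and 9.49 at 0.1 µM (1367638_PM_at) and at 8.93, 8.46 and 8.71 at 0 µM. Rs627 was the highest and Rs631 the lowest in each group. Mlycd rose 1.63-fold (0.71 ± 0.15, adjusted p = 0.0086), a call lost without Rs631 or Rs632 (0.73 and 0.69).

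Acyl-CoA thioesterases, which free fatty acids from coenzyme A, had 0 of 7 tested members past the threshold (limma, beside 0.192% of all genes, median 0.091). In the blocked fit 2 passed, Acot1 (2.43, adjusted p = 0.00541) and Acot2 (0.64, adjusted p = 0.00248; 0.00248 to 0.903 over the alternatives). Acot1, the cytosolic enzyme, was at 7.56, 8.46, 4.63 and 7.10 at 0.1 µM and at 5.33, 3.65 and 3.95 at 0 µM. Thus 3 of 4 treated and 1 of 3 control arrays exceeded the floor, and the treated Rs631 array did not. The log2 change was 2.63 ± 0.70 (adjusted p = 0.119), or 3.78-fold with values under 5 set to 5. Without the treated Rs631 array it was 3.40 and passed (adjusted p = 0.00661; 8.51e-05 to 0.903 over the 18 alternatives).

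In lipid droplets, Plin2, a coat protein (1390383_PM_at), was at 12.87, 12.88, 12.89 and 12.94 at 0.1 µM and at 12.60, 12.51 and 12.50 at 0 µM. Its arrays varied least among the 17 genes within either group. It rose 1.28-fold (0.36 ± 0.08, adjusted p = 0.0142), which did not hold when Rs627, Rs631 or Rs632 was left out (0.40, 0.35 and 0.33) and after centring on the median or the 75th percentile. Its other 2 probe sets had -0.04 ± 0.18 and -0.38 ± 0.54 and did not pass. Of 13 tested genes of droplets and lipases Plin2 alone passed (median 0.096). G0s2, an inhibitor of the droplet lipase Pnpla2, was at 10.46, 9.35, 9.14 and 9.86 at 0.1 µM and at 9.12, 7.45 and 7.81 at 0 µM. The groups did not overlap by a margin of 9.12 against 9.14. Its log2 change of 1.57 ± 0.39 missed the threshold (adjusted p = 0.0567) and passed with the block (1.67, adjusted p = 0.00184; 6.47e-05 to 1 over the alternatives) and without the treated Rs631 array (1.76).

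The transcription factors Ets2 and Cebpb rose. Ets2, of the ETS family (1372564_PM_at), was at 10.12, 10.32, 10.22 and 10.14 at 0.1 µM and at 9.52, 9.24 and 9.40 at 0 µM. The gap between the groups was wider than the spread within either. It rose 1.76-fold (0.82 ± 0.12, adjusted p = 1.83e-05). Cebpb, a leucine-zipper factor of liver metabolism and the acute phase (1387087_PM_at), was at 11.04, 10.78, 10.83 and 10.79 against 10.36, 10.14 and 9.97. Rs627 was the highest in both groups. It rose 1.63-fold (0.70 ± 0.16, adjusted p = 0.0221), but not when Rs627, Rs631 or Rs632 was left out (0.75, 0.70 and 0.63) or after centring on the median. Of 24 tested genes of the acute phase and inflammation Cebpb was the only one to pass (median 0.003), and its relative Cebpd had -0.89 ± 0.51.

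Rab30, Whamm and Apol9a also rose. Rab30, a small GTPase of the Golgi (1379606_PM_at), was at 11.75, 11.68, 11.57 and 11.61 against 10.93, 10.46 and 10.75, and it rose 1.91-fold (0.94 ± 0.19, adjusted p = 0.00467). That call was lost without Rs631 or Rs632 (0.84 and 0.97), and its second probe set had 1.32 ± 0.33 without passing. Whamm, which promotes actin branching at Golgi membranes (1377000_PM_at), was at 7.17, 6.86, 6.90 and 7.29 against 6.35, 6.18 and 6.24. The 0 µM arrays were close together and the treated ones spread more. Whamm rose 1.74-fold (0.80 ± 0.13, adjusted p = 7.59e-05). Apol9a, of the apolipoprotein L family (1376496_PM_at), was at 6.95, 7.07, 7.05 and 6.88 against 6.13, 6.14 and 5.46. It rose 2.11-fold (1.07 ± 0.24, adjusted p = 0.0142) and missed the threshold when Rs627 or Rs632 was left out (1.20 and 0.89).

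The 4 genes that fell have no place in the lists of lipid metabolism. Znf750, a zinc-finger factor of epithelial differentiation (1384275_PM_at), was at 6.10, 6.05, 5.29 and 6.37 at 0.1 µM and at 7.38, 6.71 and 7.26 at 0 µM. It fell 2.24-fold (-1.16 ± 0.24, adjusted p = 0.00467), and the treated Rs631 array was the lowest. Kcnk5, a background potassium channel (1371898_PM_at), was at 6.55, 5.96, 6.26 and 6.54 against 7.71, 7.25 and 6.82. It fell 1.91-fold (-0.93 ± 0.22, adjusted p = 0.0286), with differences of -1.16, -0.99 and -0.28 in Rs627, Rs631 and Rs632. Rs628, which has no 0 µM array, was the lowest treated one.

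Efna1, an ephrin ligand of the cell surface (1372844_PM_at), was at 7.09, 7.26, 6.75 and 7.18 against 7.99, 8.0 and 7.82. The 0 µM arrays lay close together, and the treated Rs631 array was the lowest. Efna1 fell 1.83-fold (-0.87 ± 0.20, adjusted p = 0.023), and its second probe set fell as well (-0.86 ± 0.18, adjusted p = 0.00543). Bbc3, the pro-apoptotic protein PUMA (1382993_PM_at), was at 6.68, 6.82, 6.46 and 6.78 against 7.19, 7.61 and 7.76. It fell 1.79-fold (-0.84 ± 0.19, adjusted p = 0.023).

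All 4 falls lost their call without the treated Rs631 array (-0.94, -0.91, -0.76 and -0.76 for Znf750, Kcnk5, Efna1 and Bbc3; adjusted p = 0.0682, 0.0682, 0.131 and 0.104). In the blocked fit without that array they passed (-0.94, -0.87, -0.87 and -0.79; adjusted p = 0.0425, 0.0125, 0.000679 and 0.042). Their adjusted p over the 18 alternatives ran from 0.00209 to 0.903, 0.00111 to 0.969, 2.92e-05 to 1 and 0.00541 to 1. Each lost its call without Rs631, and Znf750 and Efna1 also without Rs627 or Rs632, Kcnk5 without Rs627 or Rs628, and Bbc3 without Rs632. Kcnk5 further missed the threshold after quantile normalization (-0.76) and 75th-percentile centring (-0.75). Kcnk5 and Znf750 had been picked for being lower at 1 µM at the same time, a comparison that shares the 0 µM arrays.

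**Figure D1:**
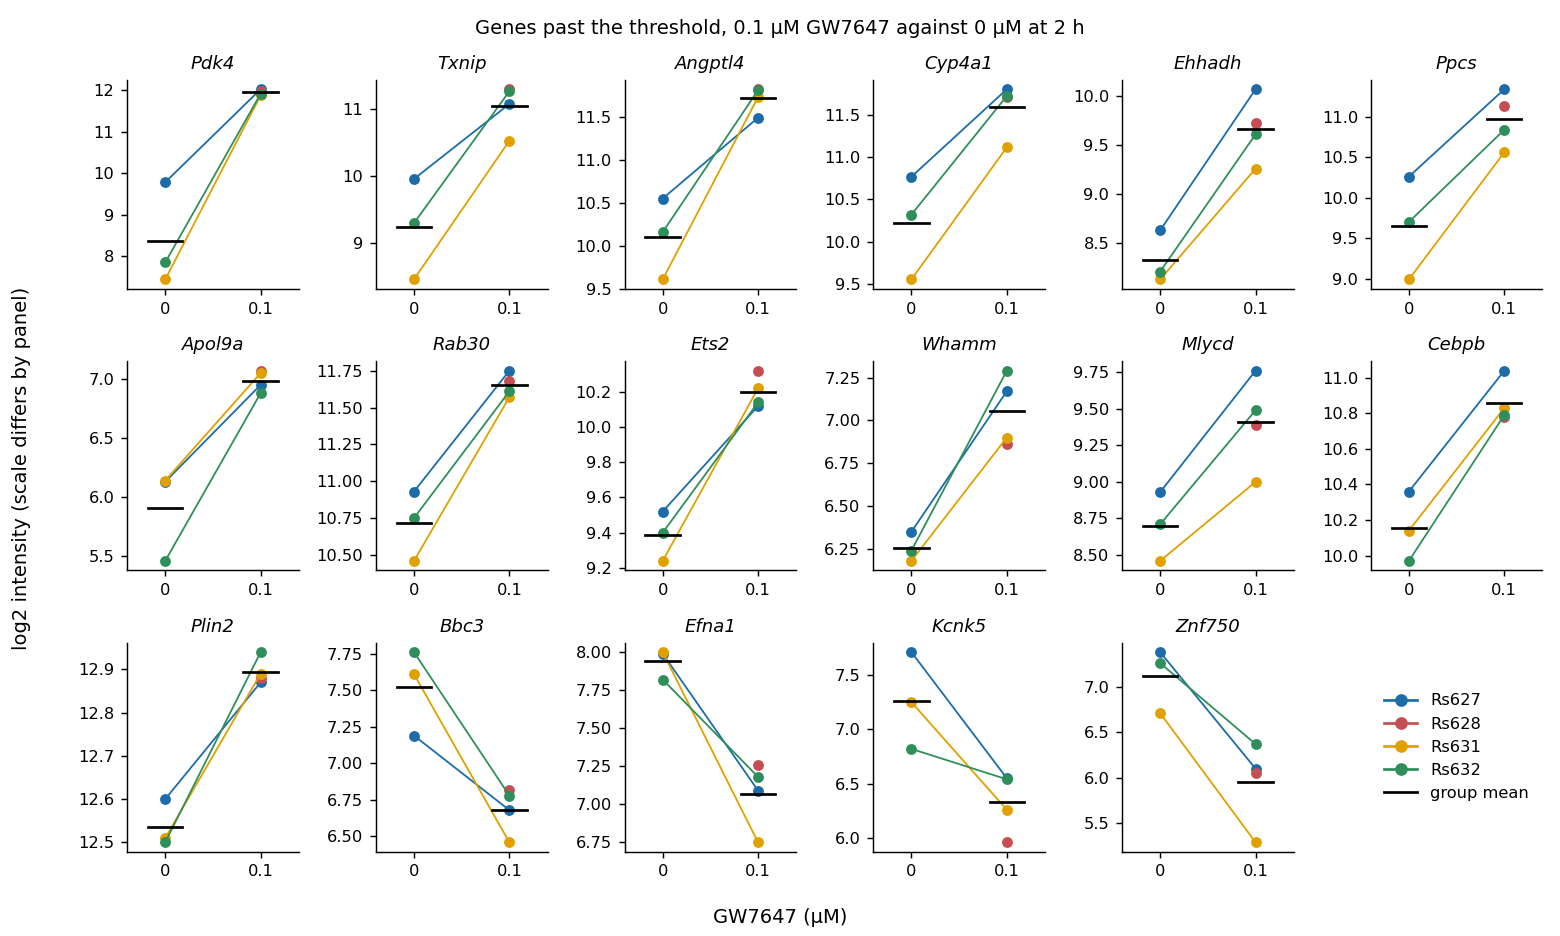
Log2 intensity of the 17 genes past the threshold at 0 and 0.1 µM GW7647 after 2 h, 1 point per array, coloured by rat, with lines joining the arrays of a rat and black bars at the group means. In each panel the 4 treated arrays lie on one side of the 3 arrays at 0 µM; Rs628 has no array at 0 µM.

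The size of the response depended on whether the rat entered the model. With the rat as a block, 55 genes passed (0.622%), of which 28 were higher (0.317%) and 27 lower (0.305%), and all 17 genes were among them. The count was 59 (27 higher, 32 lower) when the 12 h arrays at 0 µM of Rs627 and Rs628 were left out, a setting added after seeing the data. Without the treated Rs631 array, 25 genes passed (0.283%), all higher and 13 of them among the 17. The 12 others were Crat, Acot1, Slc22a5, Slc34a2, Tbc1d2, G0s2, Sgk2, Tpcn2, Enc1, Elovl6, Cdc25a and Lmo7. With the block and without that array, 48 passed, 42 higher and 6 lower, with all 17 among them. Leaving out all arrays of a rat gave 11 genes without Rs627, 21 without Rs628, 12 without Rs631 and 7 without Rs632. With the 2 h arrays alone 6 passed, and with the 7 compared arrays alone none did with limma (240 genes at unadjusted p below 0.05).

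The balance of rises and falls moved with the scaling. The 13 rises and 4 falls became 26 and 4 after quantile normalization, with 16 of the 17 genes among them. Centring each array on its 75th percentile gave 31 and 4, with 15 of the 17, and its falls held Trim32 and not Kcnk5. That centring moved the median change of all genes from -0.121 to 0.058. Relative to the median gene as deposited, the 13 rises ran from 0.48 (Plin2) to 3.72 (Pdk4) and the 4 falls from -1.04 (Znf750) to -0.72 (Bbc3). The 17 genes kept their sign in all 18 alternatives. Without the block, leaving out arrays or changing the filter or prior could not turn it, since the groups did not overlap.

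**Figure D2:**
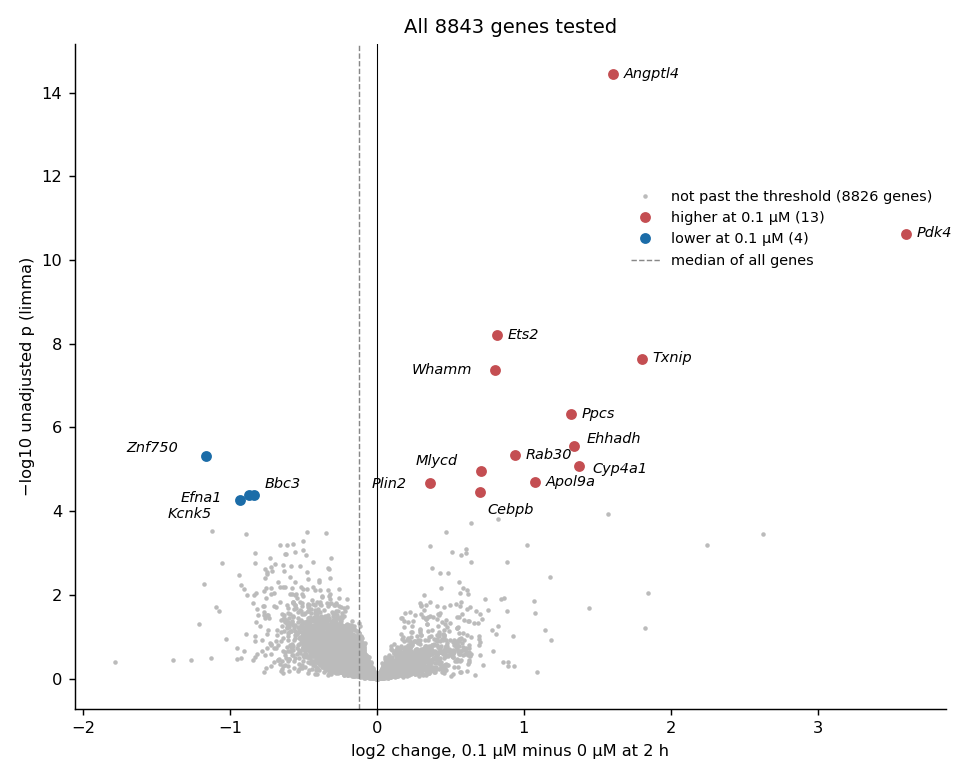
Log2 change at 0.1 µM against 0 µM after 2 h (x axis) and minus log10 of the unadjusted limma p (y axis) for the 8843 genes tested. The 13 genes that rose are red and the 4 that fell blue, and the dashed line at -0.121 is the median of all genes, which lies left of 0.

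Known target genes outside the 17 showed values without passing. Fgf21, a liver hormone of fasting, was at 9.43, 10.07, 7.91 and 9.02 at 0.1 µM and at 9.14, 7.44 and 8.09 at 0 µM (0.88 ± 0.38, adjusted p = 0.877). The spread between rats exceeded the difference between the groups. Within each rat that has both arrays the treated one was higher, and Fgf21 did not pass with the block either (limma adjusted p = 0.373). Creb3l3, a liver factor of lipid metabolism, had 0.29 ± 0.16 and Vnn1, a pantetheinase, 0.09 ± 0.20. Ppara itself was at or under 5 in all 7 arrays and gets no fold. Of 27 tested secreted factors and regulators responsive to PPARα, 3 passed (Angptl4, Txnip and Mlycd; median 0.2), and 20 were higher. Among 20 tested receptors of the PPAR family, partners and cofactors, none passed, and 15 were lower (median -0.111). The counts passing stand beside 0.192% of all genes, and those higher or lower beside a median of -0.121 over all genes. The share of all genes on either side of 0 is not given here. The lists were chosen with results of these data known.

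Lists beside fat oxidation had few or no members past the threshold with limma. Of all genes 0.192% passed, so for lists of this size a count of 0 is usual and says little of the pathway. None passed among 5 genes of ketone bodies (median -0.048), 18 of fatty acid uptake (0.013), 12 of glycolysis and gluconeogenesis control (-0.164), 19 of cholesterol synthesis (-0.107), 13 of bile acids (-0.085), 13 of the NRF2 response (-0.048) and 21 of the ATF4 and unfolded protein response (-0.028). Of 19 genes of fatty acid synthesis none passed (-0.113), and Elovl6, an elongase, passed with the block (0.99, adjusted p = 0.0311; 0.0131 to 0.903 over the alternatives). Of 23 immediate early genes, which respond first to many stimuli, none passed (0.116), with Egr1 at 0.17 ± 0.96 and Myc at 0.05 ± 0.16. Circadian clock genes had 0 of 16 (-0.133), and Nfil3, a repressor of the clock, was lower past the threshold with the block (-0.67, adjusted p = 0.0444). Of 18 genes of the urea cycle and amino acid breakdown 17 were lower (-0.185, beside -0.121 for all genes), and none passed. Nags, which makes the activator of the urea cycle, passed with the block (-0.77, adjusted p = 0.00509, 0.00121 to 1 over the alternatives; -0.89 ± 0.24 without it).

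Xenobiotic metabolism had 0 of 16 past the threshold (-0.051), beside 0.192% of all genes. Cyp1b1, Cyp1a2 and Cyp1a1, which follow the aryl hydrocarbon receptor, had 1.85 ± 0.69, 1.83 ± 0.96 and 1.14 ± 0.62. Cyp1b1 was at 7.41 and 8.19 in the treated Rs627 and Rs628 arrays and at 3.85 and 4.11 in those of Rs631 and Rs632, against 3.82 to 4.24 at 0 µM. Cyp1a1 was at 12.49, 12.51, 12.32 and 11.44 at 0.1 µM and at 12.11, 9.85 and 11.19 at 0 µM, so that the groups overlapped.

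**Figure D3:**
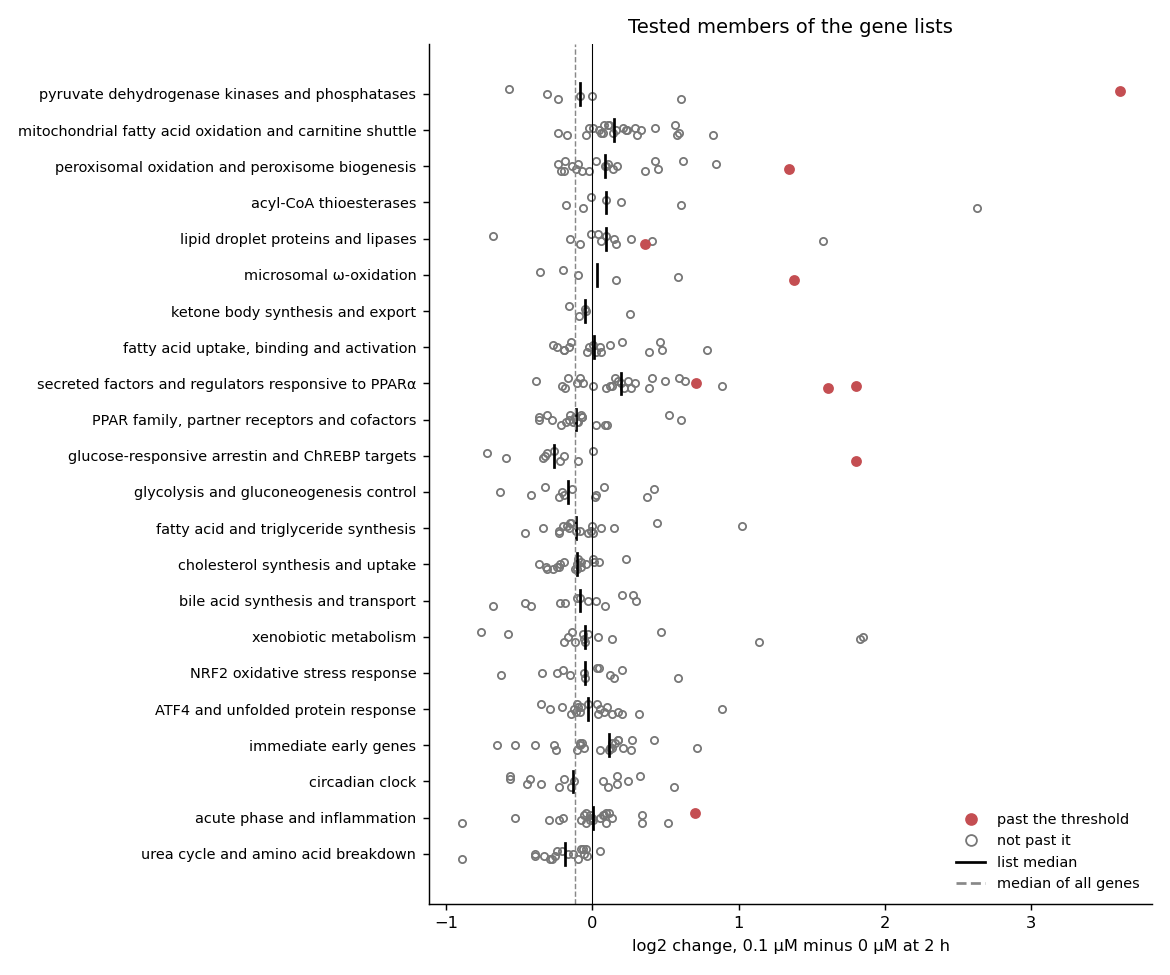
Log2 change at 0.1 µM against 0 µM after 2 h for the tested members of 22 gene lists, 1 point per gene, filled where past the threshold, with black bars at the list medians and a dashed line at the median of all genes (-0.121). Most lists hold no filled point, and the filled points lie to the right of their list medians.

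Whether more agonist gave a higher level at 2 h was read against the arrays at the other concentrations. Between 1 and 0.1 µM no gene passed (0%; limma, 200 genes at unadjusted p below 0.05), nor between 10 and 0.1 µM (0%; 56 genes). For each of the 13 rises the interval of the difference between 1 and 0.1 µM held 0, with differences from 0.01 to 0.42. Their median of 0.149 stood beside 0.134 for all genes, so differences of that size were not particular to the rises. Without the treated Rs631 array, 8 genes in place of 200 had unadjusted p below 0.05 with limma between 1 and 0.1 µM. Pdk4 had 0.28 (95% interval -0.63 to 1.19), Angptl4 0.10 (-0.22 to 0.42) and Ehhadh 0.42 (-0.11 to 0.95). A missed threshold does not show that levels were equal. The genes named here were picked by these same 0.1 µM arrays, which works against a further change at 1 or 10 µM. Between 10 and 0.1 µM the intervals of Ehhadh (0.50, 0.01 to 0.99) and Mlycd (0.29, 0.01 to 0.57) did not hold 0, nor did that of Znf750 (-0.61, -1.05 to -0.18), without passing over all genes (adjusted p = 1).

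Against 0.01 µM the 13 rises were higher at 0.1 µM by 0.19 to 1.94, and none of their intervals held 0. They had been picked for being high in these same 0.1 µM arrays, which favours this direction. No gene passed over all genes (0%; limma, 249 at unadjusted p below 0.05), with adjusted p from 0.0955 to 0.999 for these 13. With the rat as a block, 7 genes passed (0.0792%): Apol9a, Pdk4, Acot1, Txnip, Slc34a2, Ehhadh and Angptl4, each higher at 0.1 µM. The same count of 7 was reached without the treated Rs631 array. The falls, likewise picked by the 0.1 µM arrays, were lower at 0.1 than at 0.01 µM. Their differences were -0.69 to -0.34, and the interval of Kcnk5 held 0.

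Levels across the concentrations are given for 4 of the rises. Mean log2 intensities of Pdk4 at 0, 0.001, 0.01, 0.1, 1 and 10 µM were 8.35, 8.12, 10.02, 11.95, 12.23 and 12.16, with SD of 1.26, 1.27, 0.77, 0.07, 0.07 and 0.26. Its level at 0.01 µM lay between those at 0 and 0.1 µM. Angptl4 had 10.11, 9.90, 11.004, 11.71, 11.81 and 11.71. Ehhadh stood at 8.33, 8.32, 8.57, 9.67, 10.09 and 10.17, and Apol9a at 5.91, 5.90, 5.93, 6.98, 7.41 and 7.28. For both, the mean at 0.01 µM lay within 1 SD of that at 0 µM, although Ehhadh was higher at 0.01 µM in each of the 3 rats. Neither a difference between 0.01 and 0 µM nor one between genes was tested. Groups held 3 arrays, or 4 at 0.1 and 10 µM, and the rats in them differed.

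**Figure D4:**
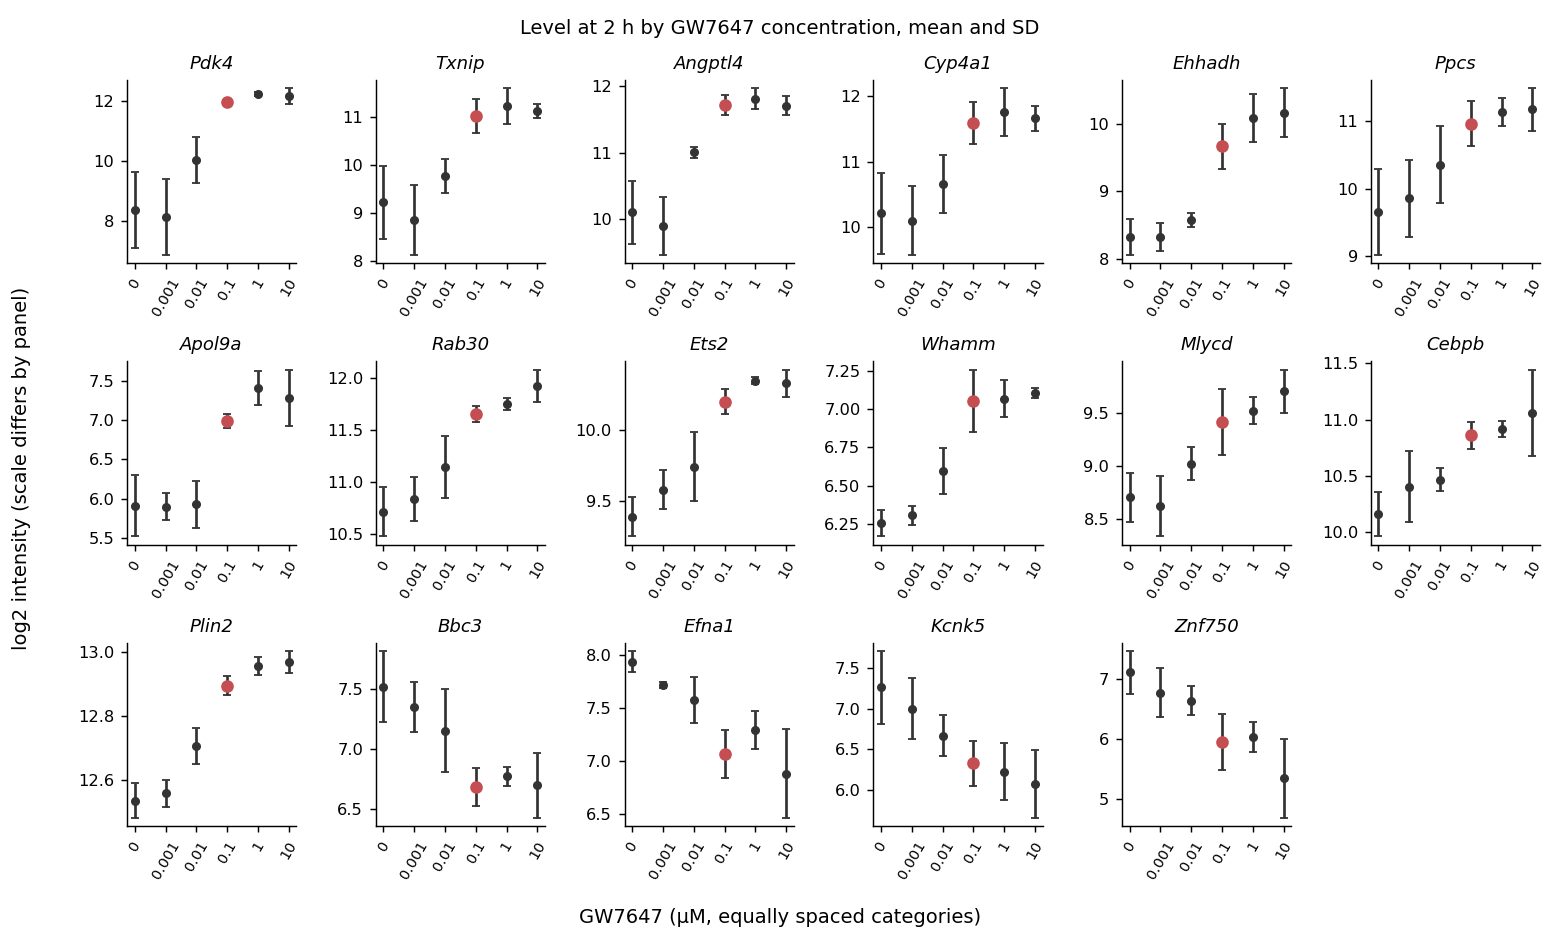
Mean log2 intensity with SD at 2 h by GW7647 concentration (µM, equally spaced) for the 17 genes; 0.1 µM is red. In most panels of genes that rose, the levels at 0.1, 1 and 10 µM lie close together and above those at 0 and 0.001 µM.

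The later times have their own 0 µM arrays and share no array with the comparison at 2 h, although the rats are the same. At 0.1 µM, 81 genes differed from 0 µM after 6 h (0.916%). After 12, 24 and 72 h they numbered 137 (1.55%), 382 (4.32%) and 780 (8.82%). Of the 13 rises 11, 10, 10 and 10 passed again in the same direction at these times. Of the 4 falls 1, 1, 1 and 0 did, each time Kcnk5. With the rat as a block the counts over all genes were 153 (1.73%), 295 (3.34%), 1143 (12.9%) and 2241 (25.3%), and the 72 h balance went from 354 higher and 426 lower to 739 and 1502. In the blocked fit 12, 11, 12 and 10 of the rises passed, with Ets2 added at 6 h, Rab30 at 12 and 24 h and Cebpb at 24 h. Kcnk5 passed at each later time in that fit, and at 72 h Bbc3 as well (adjusted p = 0.0232 and 0.028). Leaving out the doubtful 12 h arrays from the blocked fit, which leaves 1 array at 0 µM there, gave 171, 140, 1275 and 2457 genes, and at 12 h Angptl4 and Kcnk5 then did not pass. A direct test of the change at 6 h minus that at 2 h passed for no gene (0%; limma, 187 at unadjusted p below 0.05).

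Ehhadh, Cyp4a1, Mlycd and Plin2 had larger log2 changes at each later time than at 2 h. Ehhadh had 1.34, 2.83, 3.80, 4.11 and 4.26 in order of time, with a difference of 1.49 between 6 and 2 h (95% interval 0.75 to 2.24, adjusted p = 0.465). Cyp4a1 had 1.38, 1.80, 2.12, 2.69 and 2.81. Mlycd had 0.71, 1.18, 1.36, 1.47 and 1.33, and Plin2 0.36, 0.58, 0.54, 0.45 and 0.51.

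Ets2, Angptl4 and Rab30 had their largest change at 2 h, as did Txnip, Cebpb, Znf750, Efna1 and Bbc3. All these genes were picked at 2 h, which favours a largest change there. Ets2 had log2 changes of 0.82, 0.42, 0.20, 0.26 and 0.04 and passed at 2 h, and at 6 h with the block (adjusted p = 0.0954 without it and 0.000407 with it). Angptl4 had 1.61, 0.88, 1.03, 1.01 and 0.77 and passed at each time in the fit without the block, and its change at 6 h minus that at 2 h was -0.72 (interval -1.18 to -0.27, adjusted p = 0.992). Rab30 had 0.94, 0.88, 0.67, 0.52 and 0.22. Mean log2 intensities of Rab30 in both groups were lower at 72 h, going from 11.65 and 10.71 at 2 h to 9.63 and 9.41 at 72 h, a course that was not tested.

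Pdk4, Txnip, Ppcs, Plin2 and Apol9a passed at all 5 times with or without the block. Pdk4 had 3.60, 2.50, 2.30, 3.72 and 2.87, and Txnip 1.80, 1.32, 1.39, 1.70 and 1.37. Of the falls, Znf750 had -1.16 at 2 h and -0.27 at 6 h (mean log2 intensities of 7.32 and 7.59), with a difference of 0.90 (interval 0.23 to 1.56, adjusted p = 0.992). Efna1 had -0.87 and -0.32. Kcnk5 kept values of -0.93, -1.03, -0.95, -1.0 and -0.59. At 12 h the 0.1 µM group had 2 arrays, which widens its errors.

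**Figure D5:**
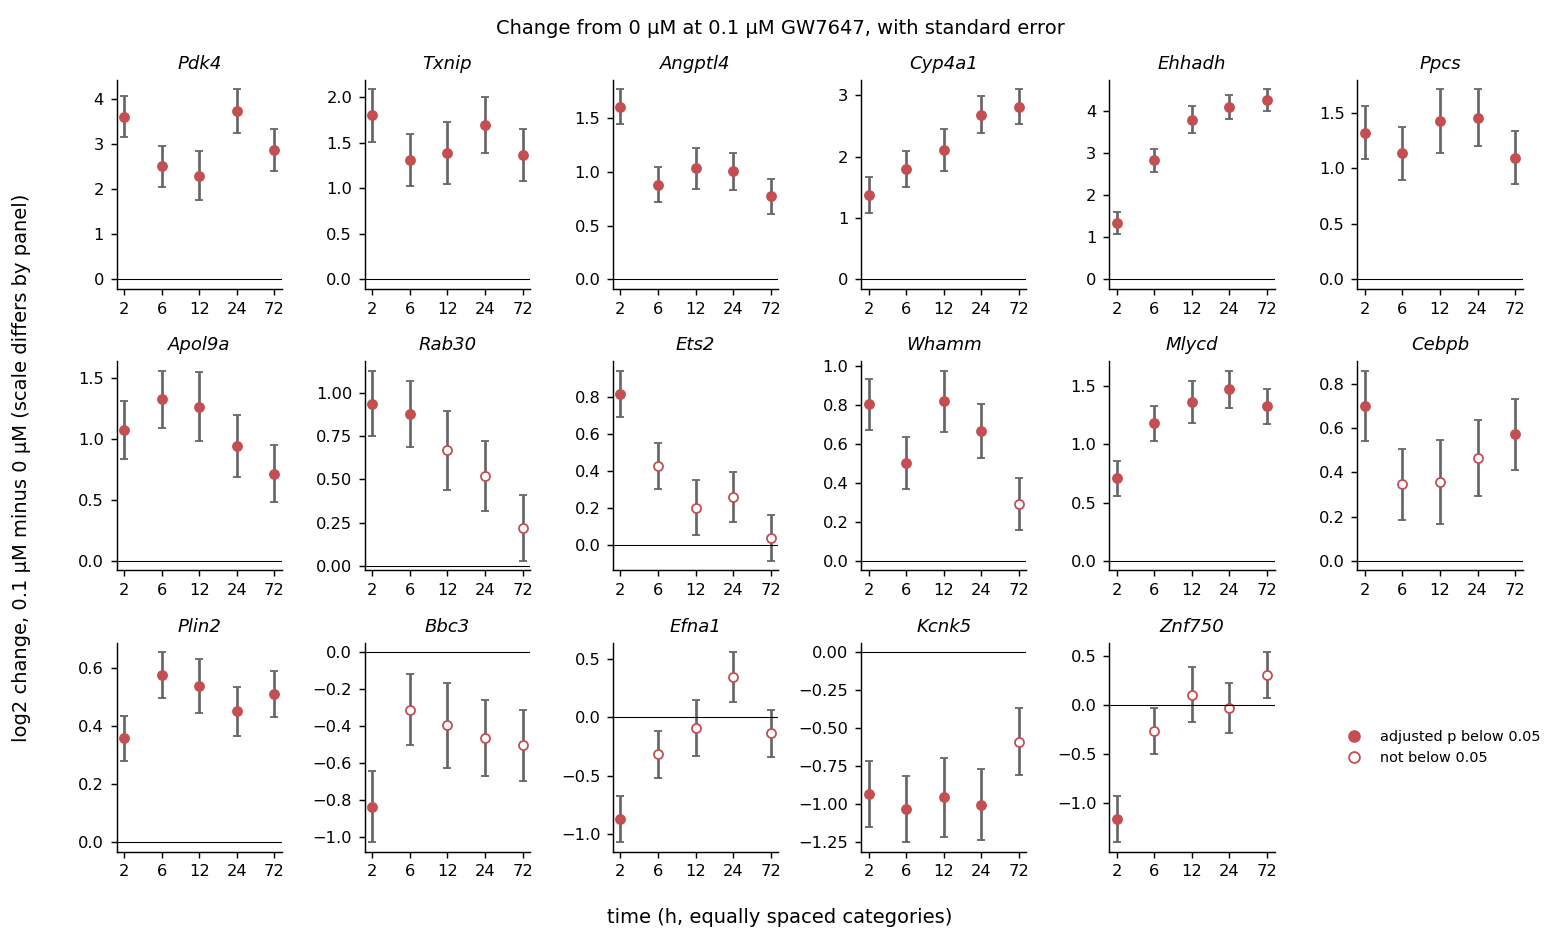
Log2 change at 0.1 µM against 0 µM with its SE from the limma fit at 2, 6, 12, 24 and 72 h (equally spaced) for the 17 genes, filled where the adjusted p is below 0.05. Ehhadh and Cyp4a1 climb after 2 h, Ets2 and Rab30 decline towards 0, and of the 4 falls Kcnk5 alone is filled after 2 h in this fit without the block.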

How the data were processed

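The deposited values are log2 intensities of Affymetrix rat arrays, 1 per probe set and array. The submitters' processing notes list Partek and GCRMA, with no role or version, and the authors' further steps are not given in the sources used here. Of 31139 probe sets 19069 had exactly 1 gene symbol, and where a gene had several probe sets the brightest on average was kept, leaving 13439 genes. Tested were the 8843 that exceeded a log2 intensity of 5 on 3 or more arrays. One model with 30 group means was fitted to all arrays with limma 3.58.1 in R 4.3.3 (70 residual degrees of freedom), two-sided, with Benjamini-Hochberg adjustment over all genes tested and a threshold of 0.05. Log2 changes carry their SE. The script was tested on simulated data.

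The series' design text says that the cells came from 4 rats, so arrays of a rat are paired. The model with 30 group means leaves the rat out and treats all 100 arrays as independent. Deviations from group means correlated at a median of 0.62 within rats and -0.223 between them, and at 0.61, 0.587 and 0.562 for the 3 pairs compared. The fit with the rat as a block is printed where it changes a call or a count by more than 1.5 times.

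The comparison, the gene lists and the rules were chosen with earlier results of these data known. Named are all genes past the threshold, up to 6 members per list by p, fixed PPARα targets, genes passing only with the block and those with the smallest p among the others. Promoters printed are those with most motif matches, then smallest p. Alternatives were the arrays in the fit, the filter, the prior, the scaling, every probe set and each rat left out. Figures were drawn with matplotlib 3.10.9.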

Additional observations from a re-analysis of the deposited data

Results flagged for a closer look

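At 0.1 µM the Cyp4a1 value of Rs631, 11.12, stood apart from the other treated arrays, which ranged from 11.72 to 11.81. The gap made up 0.863 of the range of the group. Among 36 sets of 4 arrays examined in this way it was the 1 that stood apart. Chance flags about 1 set in 20, so 1 among 36 is no more than chance gives. This is the array with the low 75th percentile. Rs631 was also the lowest for Cyp4a1 at each other concentration at 2 h, from 9.55 at 0 µM to 11.44 at 10 µM.

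Probe sets with no gene symbol or several were left out of the gene counts. Of 4399 tested, 11 passed the threshold (0.25%, limma), 7 higher and 4 lower at 0.1 µM. The largest were 1391323_PM_at with a log2 change of -2.12 and 1376076_PM_at with 1.68.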

How the results depend on the processing

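The 17 genes kept their direction in all 18 alternatives, with 224 gene results on the same side of the threshold and 82 no longer past it. In many of these settings the direction was fixed in advance, since the groups did not overlap. The count of 17 became 55 with the rat as a replicate block, 59 with the block and without the 12 h arrays at 0 µM of Rs627 and Rs628 (chosen after seeing the data), 48 with the block and without the treated Rs631 array, 35 without the arrays at repeated plate positions, 30 after quantile normalization, 35 with centring on the 75th percentile and 6 with the arrays of 2 h alone. With the compared arrays alone it was 0 with limma (240 genes at unadjusted p below 0.05), and 0 with the block (493), a fit of fewer samples. Leaving out a rat gave 7 (without Rs632) to 21 (without Rs628), with fewer arrays. Between 0.1 and 0.01 µM the count of 0 became 7 with the block, 9 with the block and without those 12 h arrays, 7 without the treated Rs631 array, 14 with both of these changes, 5 without repeated positions and 1 with quantile normalization, centring on the 75th percentile or every probe set; without a rat it ran from 0 to 6 (without Rs631). Between 10 and 0.1 µM 1 gene passed with no filter. Between 1 and 0.1 µM, and for the change at 6 h minus that at 2 h, the count was 0 in each setting. The cause of these differences was not tested. The difference in 75th percentile of -0.179 turned to 0.03 for the array median (exact permutation p = 0.171) and was -0.041 without the treated Rs631 array. Ppara, under the floor, turned from 0.02 to -0.0149 with quantile normalization and -0.0077 with median centring, and ran from -0.0809 to 0.0797 without 1 rat. Signal near the floor limits Acot1 and Ppara. Plate or batch is not named in the labels, and the treated Rs631 array is at a repeated position.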

Other observations

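The fit with the rat as a block brought in 38 further genes, 15 higher and 23 lower at 0.1 µM, which did not pass without it. Acot1 had the largest rise among them, followed by Slc34a2, a sodium-phosphate cotransporter (log2 change 2.16, adjusted p = 3.54e-05 with the block and 7.09e-07 to 0.903 over the 18 alternatives; 2.25 ± 0.63, adjusted p = 0.177 without it). It was at 10.28, 10.08, 7.44 and 10.48 at 0.1 µM in Rs627, Rs628, Rs631 and Rs632, and at 8.35, 5.42 and 8.20 at 0 µM in Rs627, Rs631 and Rs632. Rs631 was far below the other rats in both groups, and the differences within the rats were 1.93, 2.02 and 2.27. Enc1, an actin-binding protein, had 0.45 (adjusted p = 0.00184), and Dact2, a regulator of Wnt signalling, 1.10 (0.00221). Over the alternatives their adjusted p ran from 0.00172 to 0.903 and from 0.000127 to 1.

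Of the 23 genes lower with the block, 5 are named here, chosen after their values were seen. Id4, an inhibitor of helix-loop-helix factors, had -1.04 (adjusted p = 0.00683), with treated arrays at 7.05, 6.52, 7.10 and 7.75 and 0 µM arrays at 8.0, 8.41 and 8.28. Bambi, a decoy receptor of TGF-β signalling, had -1.16 (0.00685), Hhex, a homeobox factor of liver development, -0.47 (0.0235), and Tent4a, a poly(A) polymerase, -0.61 (0.00184). Bcl6, a transcriptional repressor, had -0.78 (0.046). Over the alternatives the adjusted p of Id4 ran from 0.00683 to 0.903, and those of Bambi, Hhex and Tent4a reached 1. Without the treated Rs631 array and with the block, 6 genes were lower, of which Tent4a (-0.54) and Nags (-0.69) were the only 2 outside the 4 falls. Id4, Bambi, Hhex and Bcl6 were not among these 6.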
